A study of Mus musculus with 4 samples.

Results

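*Xbp1* encodes a transcription factor of the unfolded protein response, the programme that cells start when misfolded proteins build up in the endoplasmic reticulum (ER). The sensor IRE1α is an ER membrane protein with a kinase domain and an RNase domain. When activated, its RNase cuts the *Xbp1* mRNA at a pair of small hairpin loops outside the nucleus, a short piece is released, and the ends are joined by an RNA ligase rather than by the spliceosome. The joined mRNA is read in another frame after the cut and yields the active factor XBP1s, while the uncut mRNA yields the short-lived XBP1u.

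The data are lists of spliced regions found by the Read-Split-Walk (RSW) method, which cuts reads that could not be mapped, maps both parts, and reports the gap between them. *Xbp1* is 1 region in each of 2 lists, so its 2 entries were taken from 2588 listed regions, 55 in the Tg experiment and 2533 in the Dtt experiment. All entries under the name *Xbp1* were taken by that name, whatever their read counts. The 4 libraries came from mouse embryonic fibroblasts (MEFs) of strain C57BL/6, either *Ire1*α heterozygous (Het) or *Ire1*α knockout (KO), with 1 library for each genotype in each experiment. Het cells carry 1 disrupted and 1 intact allele. In the Tg experiment, Het cells received 500 nM thapsigargin for 4 hours, an inhibitor of the calcium pump of the ER, and the reads were 35 nt long. The KO allele of that experiment was a floxed allele whose kinase domain is removed, with the RNase activity lost as a result, and the MEFs came from day 9 embryos and were at passage 6. In the Dtt experiment, Het cells received 1 mM dithiothreitol for 4 hours, which reduces disulfide bonds, the reads were 79 nt long, and another null allele without kinase and RNase domains was used. By the labels, KO cells were left untreated in both experiments, whereas the methods describe treatment of both genotypes. Treatment, read length, *Ire1*α allele and time of sequencing therefore changed together between the experiments, and their parts cannot be told apart. Poly-A mRNA was sequenced, and the Het cells of both experiments were treated, so no list shows *Xbp1* in unstressed Het cells.

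The sequence that carries the result is the piece of *Xbp1* that is absent from the reads. In mm9, the *Xbp1* gene (ENSMUSG00000020484.11) occupies 5420662 to 5425896 of chromosome 11 and is read from the plus strand. The reference sequence of chr11:5424258-5424362 on the plus strand is shown first, with the 26 removed bases, 5424282 to 5424307, in capitals. The second sequence is a 79 nt read from the study that equals the same stretch with those bases taken out, and its capitals mark the 7 bases around the joint. It has 24 bases before the joint and 55 after it.
Reference: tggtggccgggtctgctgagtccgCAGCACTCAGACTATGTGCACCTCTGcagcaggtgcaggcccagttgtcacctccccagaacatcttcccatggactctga
Read: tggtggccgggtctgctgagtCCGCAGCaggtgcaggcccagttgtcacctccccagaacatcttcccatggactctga

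The removed bases lie entirely in coding sequence of exon 4 of 5 of the transcript Xbp1-001, which has 2129 nt of mRNA in GENCODE vM1. That exon is 146 nt long, from 5424242 to 5424387, and keeps 40 nt before the first cut and 80 nt after the second. An intron this short inside an exon is unlike the introns of the spliceosome, which begin and end with the bases of splice sites. Of the removed bases, 53.8% are G or C.

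Both lists gave the same *Xbp1* region. In the Tg list it had 21 supporting reads, a splice length of 26 bp and the boundaries 5424280 and 5424312. In the Dtt list it had 173 supporting reads, with the same length and boundaries. The KO column of both entries holds no number. Regions that were also found in the KO sample had been left out of the lists, so the empty column is shared by every listed region and carries no count of *Xbp1* reads in KO cells. Among all listed regions, a match in gene, length and boundaries between the experiments was found for *Xbp1* and for a 3971 bp region of *Adamts9*, a secreted metalloprotease, with 2 reads in Tg and 2 in Dtt.

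The listed boundaries span 32 bp for a gap of 26 bp, because bases around both cuts are equal. The gap can be moved over 6 bases without a change in the joined sequence, which gives 7 placements, and all 7 lie within the listed boundaries. A read over the joint fits each of them equally. None of the 7 placements begins and ends with GT-AG, GC-AG or AT-AC, the ends used by the spliceosome, whereas 88.9% of the Tg regions and 75.9% of the Dtt regions with a known gene can be placed with such ends. Placement 2, counted from the left, is the one that has the bases CNGCAGN at both cuts, where N is any base and the cut falls after the third base. This pattern is the loop that IRE1α is known to cut. The first loop and the second loop differ in 1 of 7 bases, and the joint rebuilds the bases of the first loop:
First loop, chr11:5424279-5424285: CCGCAGC
Second loop, chr11:5424305-5424311: CTGCAGC
Joint: CCGCAGC

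**Figure D1:**
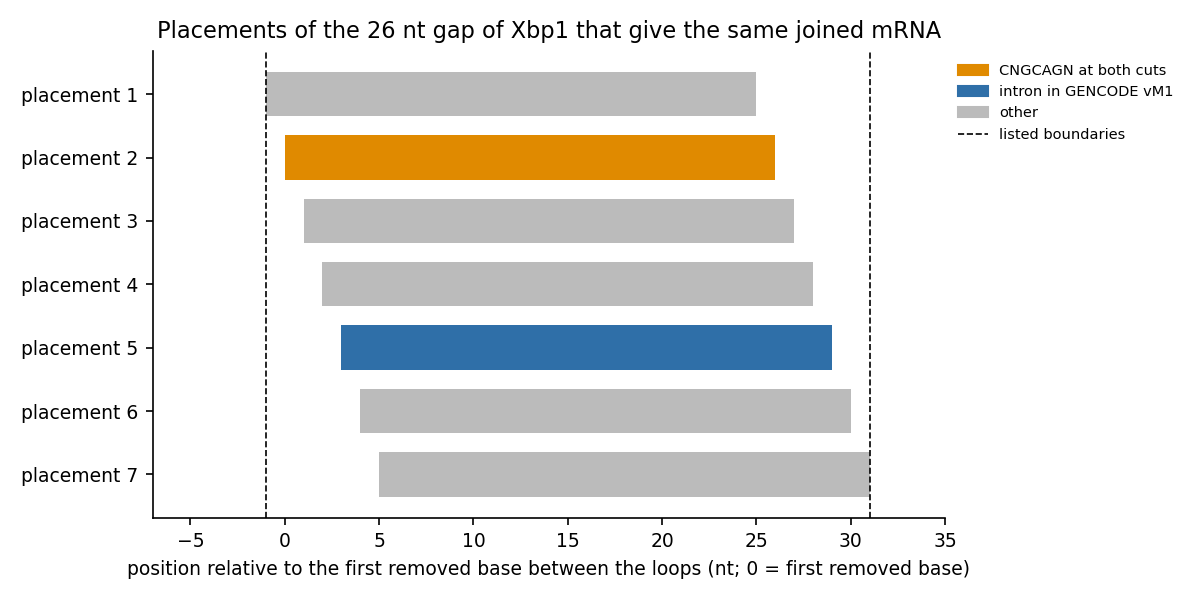
Each bar is 1 of the 7 placements of the 26 nt gap in *Xbp1*, by position in nt from the first base removed between the loops, and dashed lines mark the listed boundaries. The placements shift by 6 bases in all, the orange bar has CNGCAGN at both cuts, and the blue bar, 3 bases to its right, is the intron of the annotation.

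GENCODE vM1 also holds this gap as an intron, at placement 5, in the transcript Xbp1-201. That intron runs from 5424285 to 5424310, its ends are CA and AG, and it begins 3 bases right of the position between the loops. Its borders lie 4 bp from the listed lower boundary and 2 bp from the upper. The coding sequence of Xbp1-201 equals that of Xbp1-001 without the 26 nt, base for base. The authors filtered against UCSC known junctions and not against this annotation.

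The cuts were also placed in predicted RNA structures, as the IRE1α loops are described as hairpins. In the minimum free energy structure of the 26 nt with 40 nt on each side, at 37 °C, the second cut lay in a loop of 7 bases closed by a stem of 7 base pairs. The first cut lay in no hairpin loop of that structure. The pair that would close the 7-base loop had a probability of 7.97% at the first cut and 70.2% at the second. With 20 nt on each side, the second cut again lay in its 7-base loop (64.7%) and the first in no hairpin loop, although its closing pair had 52.6%. With 60 nt on each side, both cuts lay in loops of 7 bases on stems of 6 base pairs, with probabilities of 84.0% and 60.3%. The fold of exon 4 by itself also had both loops, with 82.1% at the first cut and 60.6% at the second. With 40 nt on each side at 30 °C, neither cut lay in a hairpin loop of the minimum free energy structure, although the closing pair of the second cut had a probability of 65.6%. The predicted loop of the first cut thus depended on the stretch folded. That of the second cut was present in each fold at 37 °C and absent from the minimum free energy structure at 30 °C. Its closing pair stayed between 60.3% and 70.2%.

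Taking out 26 nt changes the reading frame, since 26 leaves a remainder of 2 when divided by 3. The first removed base is base 479 of the coding sequence, after 159 whole codons and 1 further base. Without removal, the coding sequence of Xbp1-001 has 801 nt and codes for 267 amino acids, and its TAG stop codon lies at 5424905 to 5424907. With removal, the frame is open for 1113 nt and 371 amino acids, up to a TAA stop codon at 5425243 to 5425245. The stop codons are 338 nt apart and the protein grows by 104 amino acids. Both proteins share their first 161 residues. After these, the unspliced form has 106 residues of its own and the spliced form 210.

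**Figure D2:**
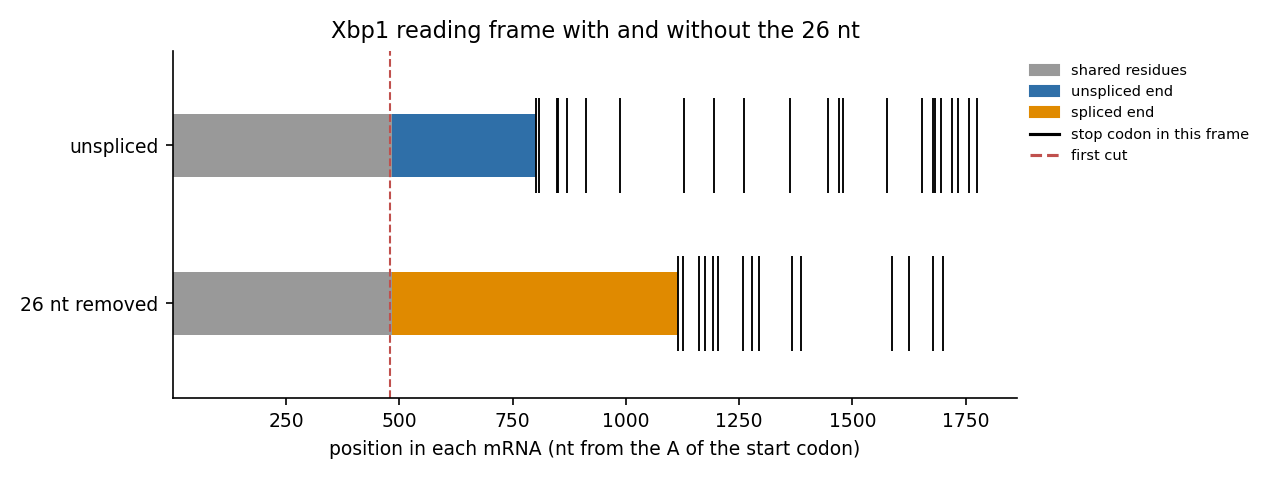
Bars show the *Xbp1* coding sequence without and with removal of the 26 nt, in nt from the start codon of each mRNA, and black lines are stop codons in the frame that is read. The shared residues are grey, the frame of the unspliced mRNA closes after 267 codons, and that of the spliced mRNA after 371.

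The ends that follow the shared residues differ in composition. Aspartate and glutamate, the acidic residues, make up 18.1% of the spliced end and 0.943% of the unspliced end, and the shared part has 21 of them among its 161 residues. Lysine and arginine, the basic residues, make up 15.5% of the shared part, 4.72% of the unspliced end and 4.29% of the spliced end. The shared part holds the basic region that binds DNA. Acidic stretches are common in activation domains of transcription factors. These are translations of the reference mRNA, and protein was not measured in these libraries.

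*Xbp1* had the most supporting reads in both lists. Its 21 reads in Tg compare with 4 for the next region, in *Fhl1*, a LIM domain gene, a ratio of 5.25. Its 173 reads in Dtt compare with 80 for the next region, in *Rps9*, a ribosomal protein gene, a ratio of 2.16. The *Rps9* region is 4 bp long, and the lists do not tell a gap made in the mRNA from one where the DNA of the cells differs from mm9, so this ratio need not be one to another spliced mRNA. Among regions of 10 bp and over, the next Dtt region was a 39 bp region of *Poldip3* with 17 reads, and *Xbp1* had 10.2 times as many. The boundaries of that region, 82957740 and 82957816, are wider than 1 gap of 39 bp can slide there. Its reads can therefore pool gaps at several positions, unlike those of *Xbp1*. Regions with 10 or more reads made up 1.82% of the Tg list, which is *Xbp1* by itself, and 0.711% of the Dtt list, 18 of 2533 regions. *Xbp1* was the positive control of the method, so its rank is given as a description.

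**Figure D3:**
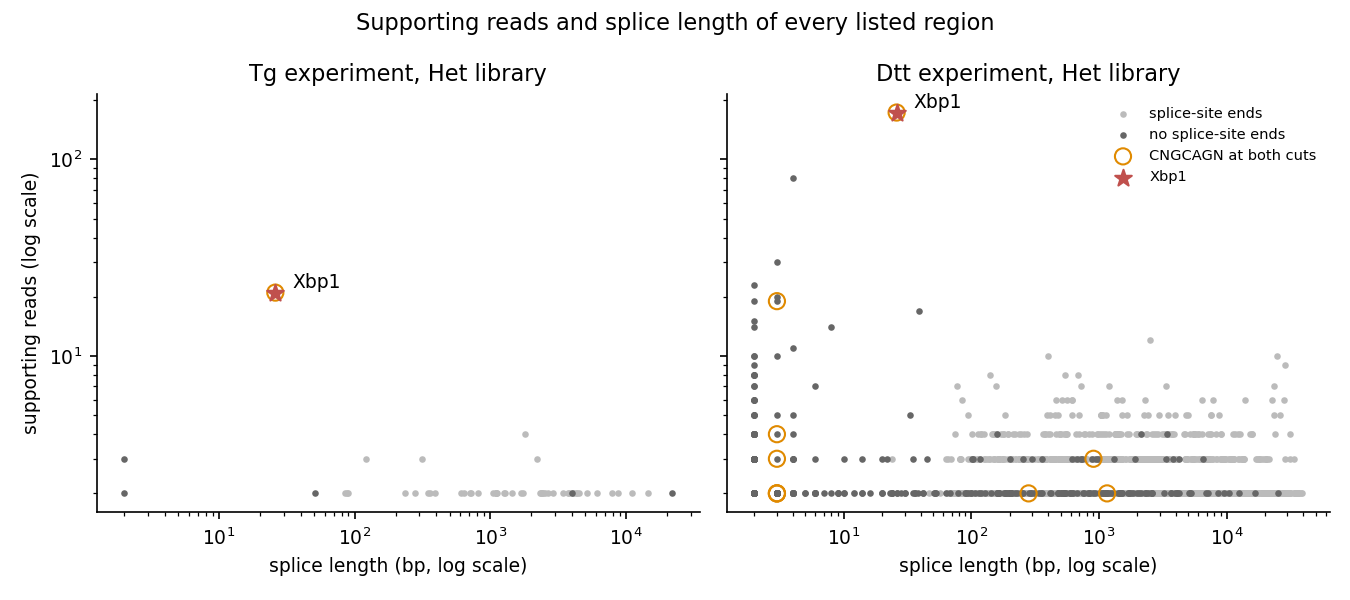
Each point is a listed region, by splice length in bp and supporting reads, both on log scales, for the Tg list (left) and the Dtt list (right). Dark points lack the ends of spliceosomal introns, orange rings mark CNGCAGN at both cuts, and the star is *Xbp1*, the highest point in both panels with 21 and 173 reads.

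Regions that lie inside 1 coding exon, as *Xbp1* does, were compared next. In the Tg list 2 of 54 regions with a known gene lay inside 1 coding exon, the other being a 2 bp region of *Abcf2* with 2 reads, so that *Xbp1* had 10.5 times as many. In the Dtt list 171 of 2526 regions with a known gene did so, and the next after *Xbp1* was a 3 bp region of *Boc* with 10 reads, a ratio of 17.3. Among these 171 regions, 133 had lengths that are no multiple of 3, as *Xbp1* does. A length that shifts the frame was thus the common case. Over all regions, 60% of the Tg list and 70% of the Dtt list had such lengths.

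*Xbp1* was also compared with short coding regions that shift the frame, of 10 to 49 bp and without spliceosomal ends. It was the 1 such region of the Tg list. In the Dtt list there were 4, and the other 3 had 2 reads each, the lowest number that the lists hold. These counts rest on the lower limit of 10 bp, as there were 2 in Tg and 129 in Dtt from 2 to 49 bp. The 3 regions of 10 bp and over were 35 bp in *Camsap1*, which binds microtubule ends, 28 bp in *Ube2s*, a ubiquitin-conjugating enzyme, and 16 bp in *Slco3a1*, a transporter. Coding regions without spliceosomal ends and within 5 bp of the length of *Xbp1* were also looked up, whether or not they shift the frame. These added a region of 30 bp in *Ppp1r15a*, which also had 2 reads but keeps the frame. *Ppp1r15a* directs the removal of phosphate from eIF2α in the same stress response. The sequences are shown for comparison with *Xbp1*, on the strand of the gene, with the removed bases in capitals. None of them has CNGCAGN at both cuts.
Camsap1, 25794738 to 25794772 of chromosome 2: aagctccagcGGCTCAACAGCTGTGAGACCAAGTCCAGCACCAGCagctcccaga
Ube2s, 4759843 to 4759870 of chromosome 7: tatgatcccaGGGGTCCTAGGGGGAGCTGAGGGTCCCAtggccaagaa
Slco3a1, 81429229 to 81429244 of chromosome 7: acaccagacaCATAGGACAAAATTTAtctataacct
Ppp1r15a, 52779707 to 52779736 of chromosome 7: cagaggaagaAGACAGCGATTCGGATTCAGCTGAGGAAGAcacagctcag

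The length of 26 bp was shared by 2 other Dtt regions and by no other Tg region. These were in *Mtpn* and *Bgn*, with 2 reads each, and neither lay inside a coding exon. Their gaps slide over 18 and 24 bases, against 6 for *Xbp1*. A slide of 6 bases or more was found for 78 of 2087 Dtt regions of 10 bp and over and for 1 of 52 in Tg, which is *Xbp1*.

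The loop pattern CNGCAGN at both cuts, on the strand of the gene, was held by 1.85% of the Tg regions, which is *Xbp1* as 1 of 54, and by 0.396% of the Dtt regions, 10 of 2526. In the Dtt list the other 9 fell into 2 kinds. Removals of 3 bp were found in 6 of them, *Wdr89* (19 reads), *Jun* (4 reads), *Mdh2* (3 reads), *Phlda1*, *Xrcc3* and *Pprc1* (2 reads each). In these the cuts are 3 bases apart, so that both copies of the pattern overlap. The sequences of 4 of them are drawn at a placement that has the pattern, with the removed bases in capitals. So drawn, the removed CAG is followed by another CAG. The listed boundaries of *Jun*, 94717323 and 94717360, and of *Mdh2*, 136266071 and 136266112, are wider than 1 gap of 3 bp can slide there. The reads of these 2 regions need therefore not share the drawn placement.
Jun: gcagcagcagCAGcagccgcctc
Mdh2: cctcgagcagCAGcagcagcagc
Phlda1: gctacaacagCAGcagcagcagc
Pprc1: aggcgtgctgCAGcagcagcagc

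The remaining 3 regions, in *Dlg5* (906 bp, 3 reads), *Rai1* (281 bp, 2 reads) and *Wbp1* (1158 bp, 2 reads), can be placed with the ends of spliceosomal introns. *Xbp1* was therefore the 1 region of 10 bp and over, in either list, with the pattern at both cuts and no spliceosomal ends, a combination that was chosen after these values were seen. At 1 cut or more, the pattern was held by 6 Tg regions and 86 Dtt regions. In the *Xbp1* mRNA the pattern occurs 7 times, of which 3 are in exon 4, and the last of these overlaps the second loop.

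How many reads can support the joint depends on the read length. RSW dropped the last 2 bases, split the remaining 33 or 77 nt so that each part had at least 11 bases, and discarded parts with more than 10 matches. Parts of 11 bases at the *Xbp1* cuts match mm9 between 156 and 4030 times, so they cannot be used. On the left of the joint, parts of 14 to 15 bases are needed before the number of matches drops to 10 or fewer, depending on the placement, and on the right 15 to 16. As a result, 9 read starts per strand can support *Xbp1* at 33 nt and 53 at 77 nt. The Tg reads of *Xbp1* must therefore have the joint near their middle, with 9 to 17 bases before the first placement, and the Dtt reads could have 9 to 61. Per usable start on both strands, the Tg library gave 1.17 reads and the Dtt library 1.63.

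**Figure D4:**
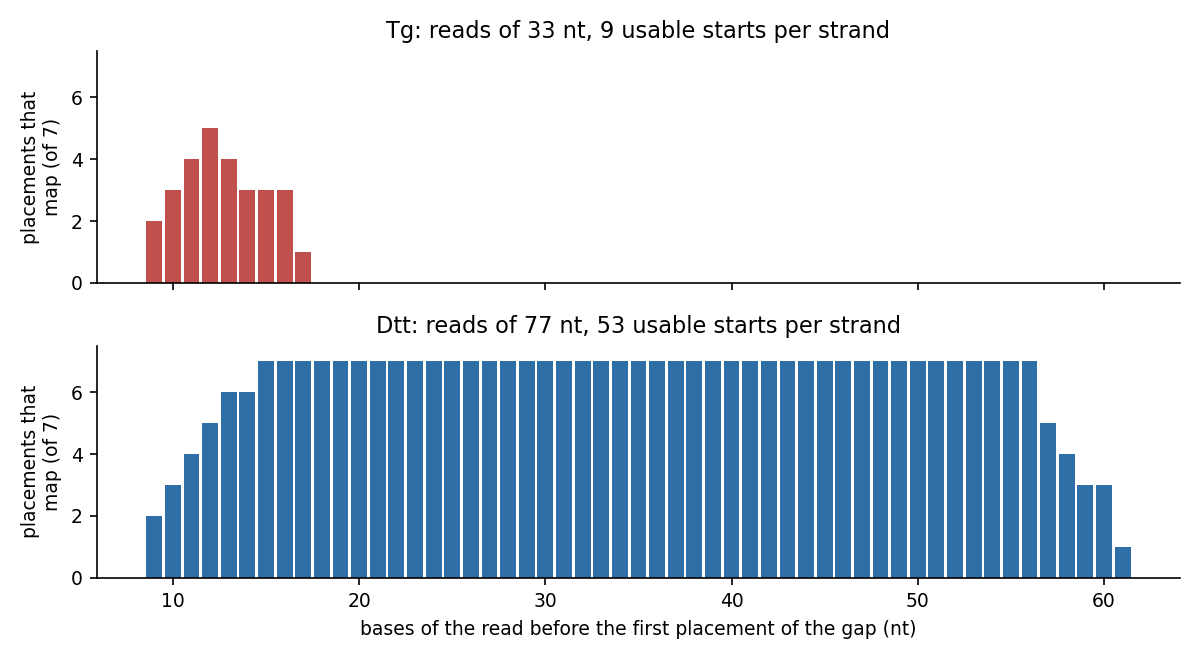
For reads of 33 nt (Tg, top) and 77 nt (Dtt, bottom) on the plus strand, bars give how many of the 7 placements of the *Xbp1* gap can be mapped, by the number of bases before the first placement. Bars cover 9 starts at 33 nt, with at most 5 placements each, and 53 starts at 77 nt, most with all 7.

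The number of *Xbp1* reads in the experiments was compared over the depth of the Het libraries. Per 1000000 library reads, *Xbp1* had 2.35 supporting reads in Tg (95% Wilson interval 1.54 to 3.60) and 7.38 in Dtt (6.36 to 8.56). Per 1000000 unmapped reads, the values were 50.2 (32.9 to 76.8) and 84.2 (72.5 to 97.7). Per 1000000 library reads and usable start, they were 0.131 (0.0855 to 0.200) in Tg and 0.0696 (0.0600 to 0.0808) in Dtt. The ratio of Dtt to Tg over library reads and usable starts was 0.532 (exact 95% interval 0.338 to 0.882; two-sided exact binomial test, p = 0.00980). Over library reads without usable starts the ratio was 3.14 (interval 1.99 to 5.19, exact binomial p = 1.82e-08), in the other direction. Over unmapped reads without usable starts, a denominator added after seeing the data, it was 1.68 (interval 1.06 to 2.78, exact binomial p = 0.0214). Of the 53 starts of the Dtt reads, 33 have no part that runs over another exon junction of *Xbp1*. With these starts, a choice made after seeing the data, the ratio was 0.855 (interval 0.542 to 1.42, exact binomial p = 0.461). The direction of the ratio thus changed with the denominator, and the libraries allow no order of the treatments. Each of these tests compares 2 libraries and covers counting error. Reads were not tagged by molecule, so several may come from 1 cDNA. Read counts of unspliced *Xbp1* were not analysed here, so the share of spliced mRNA is not given.

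**Figure D5:**
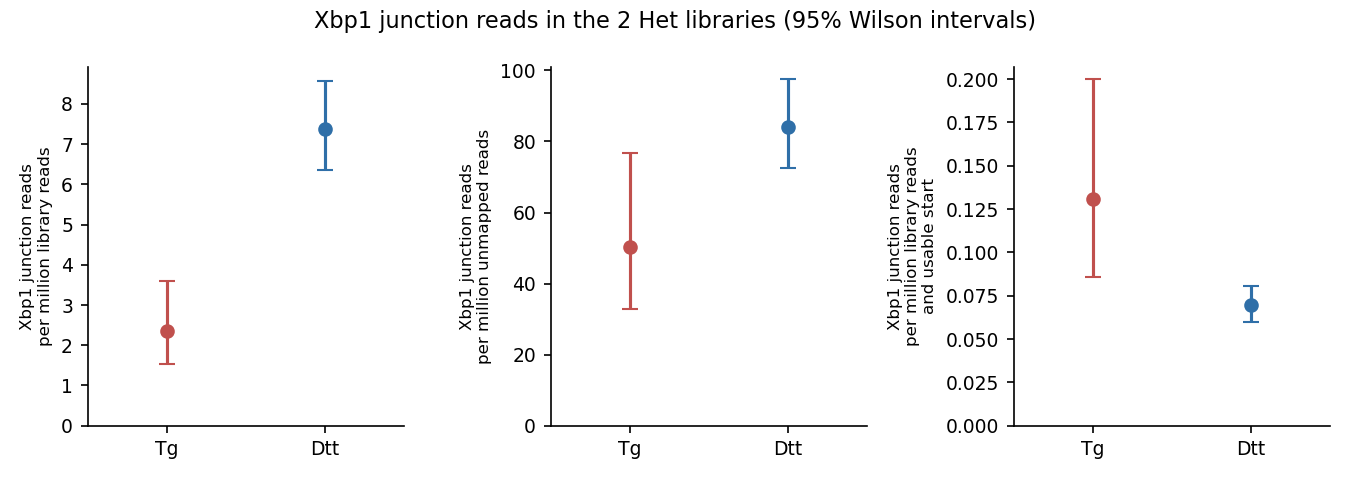
Points are the *Xbp1* junction reads of the Tg and Dtt Het libraries per 1000000 library reads, per 1000000 unmapped reads, and per 1000000 library reads and usable start, with 95% Wilson intervals and axes from 0. The Dtt value is above the Tg value in the first panel (7.38 against 2.35) and below it in the last (0.0696 against 0.131).

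Genes that act with *Xbp1* were looked up in the same lists, which hold spliced regions and not expression levels. Of 39 genes of the unfolded protein response, chaperones and sensors among them, 0 had a Tg region and 17, or 43.6%, had a Dtt region. Of all 22613 annotated genes with a coding sequence, whether or not they are expressed in MEFs, 0.226% had a Tg region and 8.57% a Dtt region. Levels of these genes were not analysed here, so their part in the higher share was not tested. The 30 Dtt regions of these 17 genes had 2 to 8 reads. The most, 8, were those of a 139 bp region of *Canx*, an ER lectin chaperone. None of the 30 was 26 bp long, against 0.118% of all Dtt regions. None had the loop pattern at both cuts, against 0.396% of those with a known gene. At such shares 30 regions are too few to tell these genes from the whole list. Of the 30, 13 can be placed with spliceosomal ends, or 43.3%, against 75.9% of all Dtt regions with a known gene. *Pdia3*, a disulfide isomerase, had a 2 bp region with 5 reads, and *Wfs1*, an ER membrane protein, a 2 bp region with 4 reads. *Hspa5*, the chaperone BiP, had 5 regions of 2 bp with 2 reads each.

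Subunits of the tRNA ligase complex, which joins the *Xbp1* ends, had no region in either list, 0 of 5 genes. Of all coding genes, 0.226% had a Tg region and 8.57% a Dtt region, so 5 genes are too few to differ from these shares. Of 9 mRNAs known to be cut by IRE1α for decay, 1 had a region in Dtt, or 11.1% against the 8.57% of all coding genes, and 0 had one in Tg. This was *Sparc*, a matrix glycoprotein, with 5 regions of 2 bp and up to 23 reads. The boundaries of the region with 23 reads, 55208920 and 55208938, are wider than 1 gap of 2 bp can slide there. These reads can therefore pool gaps at several positions. Decay leaves no joined product for RSW to find, and whether this bears on the count was not tested. Of 9 fibroblast markers, 6 had a Dtt region, or 66.7% against the 8.57% of all coding genes, *Col1a1*, *Col1a2*, *Fn1*, *Sparc*, *Thy1* and *Vim*, and 0 had a Tg region. *Col3a1*, *Pdgfrb* and *S100a4* had none. A gene without a region is not thereby shown to be unexpressed, so the labelled cell type could not be checked further.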

How the data were processed

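The authors mapped GAII single-end reads with Bowtie to mm9 and known junctions, allowing 2 mismatches, kept unmapped reads, trimmed 2 bases, split each read and mapped the parts without mismatch to genome and exon boundaries. Parts had to lie within 40 kb with a gap of at least 2 bp. Regions within 5 bp of a UCSC junction, under 2 reads or found in KO were left out. The deposited counts are raw supporting reads per Het region, not normalized. Splice lengths and boundaries, in bp, are the authors' other deposited values. The KO columns hold no number, and 0 per-sample columns were left unused.

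The Het library held 8922329 reads in Tg (418002 unmapped) and 23442681 in Dtt (2055557 unmapped), by the study's totals. Each group has 1 library, so no difference has a replicate check. Gaps were placed on mm9 (GENCODE vM1) by symbol or position, for 54 of 55 Tg and 2526 of 2533 Dtt regions. Usable starts were enumerated over all mm9 sequences. A start was kept if its untrimmed read had more than 2 mismatches to unspliced mRNA. Loops were folded with ViennaRNA 2.7.2. Ratios were tested with the two-sided exact binomial test, threshold 0.05, with exact 95% intervals. Gap placement, the search for patterns and spliceosomal ends, and the exact test were tested on simulated data. The simulated boundaries were those that 1 gap gives by sliding, so listed regions with wider boundaries were not covered. Genes were named by rule: *Xbp1*, regions of 26 bp, regions with the motif at both cuts, short frame-shifting coding regions, regions in both lists, and regions of 4 gene lists. *Xbp1*, the lists and the rules were chosen with earlier results of these data known. Python 3.11.15, scipy 1.17.1, pysam 0.24.0 and matplotlib 3.10.9 were used.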

Additional observations from a re-analysis of the deposited data

Results flagged for a closer look

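The Dtt over Tg ratio of *Xbp1* junction reads per library read and usable start was 0.532 between the Het libraries (two-sided exact binomial test of the reads of 1 library each, p = 0.00980), which compares those libraries and not the treatments. The call did not hold with starts from the split limits alone (0.910, exact p = 0.632) or with no part over another exon junction (0.855, exact p = 0.461), and the direction turned over library reads alone (3.14). Across all choices of denominator and usable starts, the ratio ran from 0.128 to 3.14.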

How the results depend on the processing

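For *Xbp1*, the ratio of Dtt to Tg reads was reversed over library reads alone (3.14) and, added after seeing the data, over unmapped reads alone (1.68), and no longer passed the test with starts from the split limits alone (0.910, exact binomial p = 0.632) or, also added later, with no part over another exon junction (0.855). It kept its direction and call over unmapped reads and usable starts (0.284), with parts of at least 13 bases (0.532) and with parts that match the genome once (0.128). Starts on both strands came to 18 in Tg and 106 in Dtt, to 36 and 124 with no limit on matches, to 4 and 98 with 1 match, and to 66 in Dtt with no part over another junction. With any base at the fifth position of the pattern, 17 Dtt regions in place of 10 held it at both cuts. Short frame-shifting coding regions numbered 2 (Tg) and 129 (Dtt) from 2 bp on, against 1 and 4, and 1 in Dtt with 3 or more reads. *Xbp1* ranked 1 in each list under every choice of regions. Its Dtt lead was 10.2 times from 10 bp on, over a *Poldip3* region whose reads can pool several gaps. Of the 2 cuts, 1 lay in its 7-base loop with 40 or 20 nt on each side, 2 with 60 nt or the whole exon, and 0 at 30 °C. The causes were not tested. No paired analysis was possible because the groups hold 1 library apiece and carry no replicate numbers. The depth of 1 library per group limits every comparison to counting error.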
